A study of Mus musculus with 14 samples.

Results

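RNA of microglia sorted from the cerebral cortex of mice 60 days after an ischemic stroke was compared with that of microglia from sham animals. The comparison takes 4 of the 14 libraries of a time course, namely the 2 of day 60 and the 2 of sham, and covers 13861 of 14084 genes, those that passed a filter on low counts. All animals were C57BL/6 mice labelled 8 to 10 weeks old. Whether that age is at surgery or at collection is not given in the sources used here. In the stroke group a distal branch of the middle cerebral artery was tied off for good and both common carotid arteries were closed for 7 min, and the cells were collected on day 60. In the sham group only the skull surface was injured, and the time of sampling is not given in the sources used here. Cells of both groups were collected by fluorescence-activated sorting, for which no markers or gate are named. The labels do not say whether both libraries of a group are from different mice, and the p-values therefore cover the spread of these libraries alone, which may be technical.

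Microglia are the resident macrophages of the brain. After an infarct they and macrophages of other origin take up dead cells and myelin, break them down in lysosomes and export the cholesterol that is left over. Such cells are known to raise genes of lipid handling, cathepsins, complement and class II antigen presentation, and to lower receptors by which microglia of the healthy brain are recognised.

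Before the gene groups are described, the cell type markers of the 4 libraries need to be given, because the sham libraries went against their label in part. Total counts of replicates 1 and 2 were 15254983 and 100625099 in sham and 27842666 and 183895519 at day 60. Sums over marker lists are given as CPM, counts scaled to a common total, sham replicates 1 and 2 first. The 10 microglia markers summed to 2523 and 1463 CPM in sham and to 3556 and 4461 CPM at day 60. None of them was at 0 in any of the 4 libraries. Csf1r and Cx3cr1, whose groups overlapped, made up most of both sham sums, and Tmem119, Olfml3, Siglech and Sall1 were far lower in sham. Of the 10 markers 8 had both day 60 libraries above both sham libraries, against 33.9% of all genes, with a median log2 fold change of 3.49. The 14 neutrophil markers summed to 22360 and 33390 CPM in sham and to 913 and 982 CPM at day 60. The 14 monocyte markers summed to 8239 and 14530 CPM in sham and to 1630 and 1974 CPM at day 60. Mast cell and basophil markers had 1233 and 962 CPM in sham against 60.6 and 45.1 CPM. This fall of the sum was not shared by the list: of its 8 members 3 lay higher in both day 60 libraries and 3 lower. The median log2 fold change was -0.64. The 3 erythroid markers in the table had 200.4 and 207 CPM in sham against 0.0718 and 0.136 CPM, with 2 of them at 0 in both day 60 libraries. Nearly all of both sham sums was Alas2 alone, and the globin genes of the list were missing from the counts. In both sham libraries the neutrophil and the monocyte sums exceeded the microglia sum. These sums move with each difference between the groups, and their part in the results was not tested. In such bulk samples fewer cells of a type and less RNA per cell cannot be told apart.

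**Figure D1:**
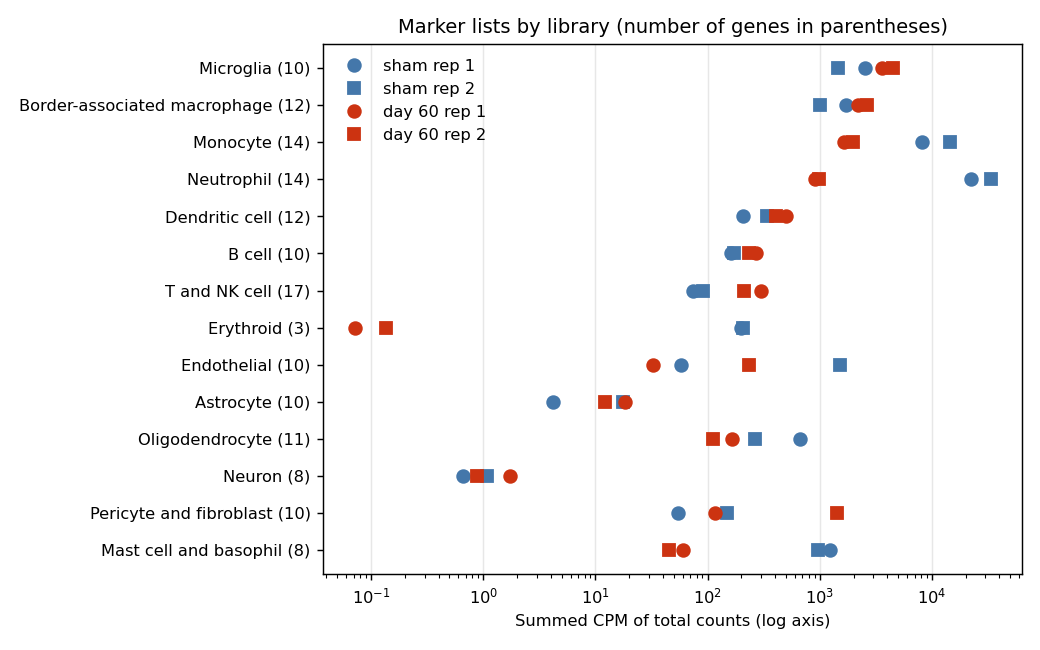
Summed CPM of 14 marker lists (log axis) in the 2 sham and the 2 day 60 libraries, 1 point per library, with the number of genes of each list in parentheses. The neutrophil sum lies at 22360 and 33390 CPM in sham and at 913 and 982 CPM at day 60, and the microglia sum is higher in both day 60 libraries.

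Border-associated macrophage markers, of which 2 were at 0 in sham replicate 1 and 1 in replicate 2, summed to 1709 and 1014 CPM in sham and 2195 and 2618 CPM at day 60. Most of both sham sums was F13a1, which is also made by monocytes. It was the 1 member of 12 that lay lower in both day 60 libraries, whereas 10 lay higher, with a median log2 fold change of 2.97. T and NK cell markers had 73.6 and 91.3 CPM in sham and 299.8 and 212 CPM at day 60, and most of that rise was Il7r alone. Of 17 members 11 lay higher in both day 60 libraries and 4 lower, with a median log2 fold change of 1.40. Dendritic cell markers had 207 and 336 CPM in sham and 501 and 409 CPM at day 60. B cell markers had 163 and 173 CPM in sham and 271 and 232 CPM at day 60. Single libraries stood apart in other lists: endothelial markers reached 1505 CPM in sham replicate 2 against 57.4 CPM in replicate 1, and pericyte and fibroblast markers reached 1439 CPM in day 60 replicate 2 against 116 CPM in replicate 1. Oligodendrocyte markers had 664 and 264 CPM in sham and 164 and 113 CPM at day 60, and most of both sham sums was Mbp alone. Of 10 members tested 5 lay higher in both day 60 libraries and 1, Mbp, lower, with a median log2 fold change of 0.65. Astrocyte markers stayed at or below 18.2 CPM and neuron markers at or below 1.72 CPM in the 4 libraries.

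At day 60, 1088 genes (7.85% of those tested) differed from sham at an adjusted p under 0.05 by edgeR's quasi-likelihood test, with p-values adjusted over all genes tested. Of these, 687 were higher and 401 were lower, which is 4.96% and 2.89% of the genes tested. In each of the 1088 both day 60 libraries lay on one side of both sham libraries. Such separation was common: it held for 8422 genes (60.8%), of which 4692 genes (33.9%) had both day 60 libraries above both sham libraries and 3730 (26.9%) had both below. On CPM of total counts without TMM scaling, these were 3972 above and 4020 below. DESeq2 called 1393 genes (10%) higher and 1260 (9.09%) lower. The called changes ranged from 1.31 to 16.4 in size on the log2 scale, with a median of 3.16, whereas the median log2 fold change over all genes was 0.14. Taken within replicate numbers, the log2 fold change of replicate 1 correlated over genes with that of replicate 2 at r = 0.733, a description of genes and not of independent samples. The 2 had the same sign in 84.4% of the 11102 genes with over 3 counts in all 4 libraries.

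**Figure D2:**
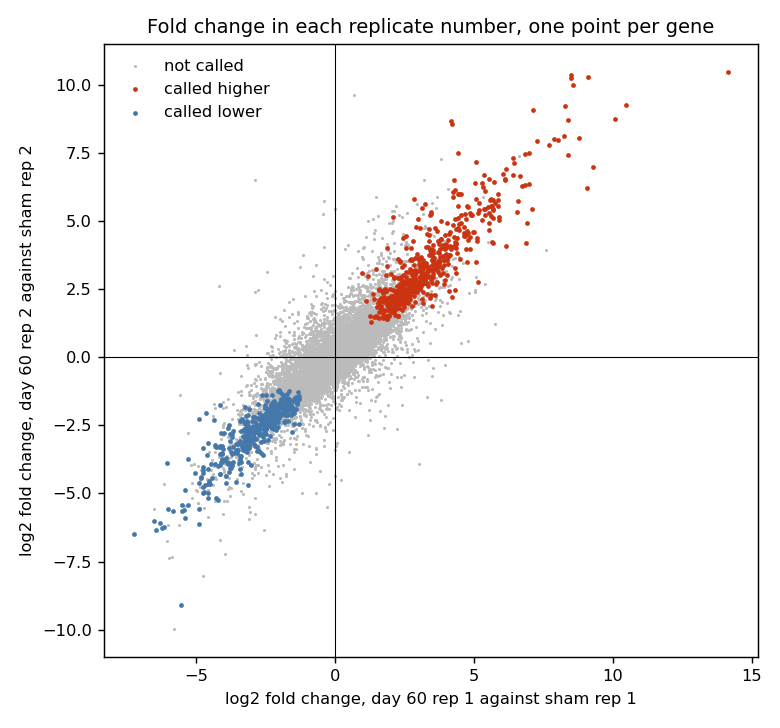
Log2 fold change in day 60 replicate 1 against sham replicate 1 (horizontal axis) and in day 60 replicate 2 against sham replicate 2 (vertical axis). The 11102 genes with over 3 counts in all 4 libraries are shown, with genes called higher in red and lower in blue. Genes with fewer counts in a library, such as Mmp12, are left out. Called genes lie in the 2 quadrants in which both replicates moved the same way.

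The number of called genes depended on each library of the comparison. It fell to 132 without sham replicate 1, of which 127 were among the 1088, and to 189 without sham replicate 2, of which 179 were. Without day 60 replicate 1 or replicate 2 it was 263 or 220, of which only 16 or 5 were lower. Libraries of other times enter through the shared estimate of spread: without day 90 replicate 1 or 2 the number was 601 or 602, and without day 21 replicate 1 or 2 it was 1717 or 1750. There were 78 genes called in all 4 fits that left out 1 sham or 1 day 60 library, 75 higher and 3 lower. Of the 149 genes that the rule for naming genes took, 132 were called, and 99, 94, 77 and 80 of them lost the call without sham replicate 1, sham replicate 2, day 60 replicate 1 and day 60 replicate 2.

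Levels of single genes are TMM-scaled CPM, always replicate 1 and then replicate 2, followed by the log2 fold change ± its standard error and the adjusted p of the same edgeR test. Among called genes whose mean log2 CPM reached 3 the largest change was in Mmp12, which encodes macrophage elastase. It had 0.182 and 0.463 CPM in sham and 2316 and 3109.7 CPM at day 60, a log2 fold change of 12.93 ± 1.07 (adjusted p = 0.000202). The sham values rest on 3 and 39 counts, and both day 60 libraries were far above them. Gpnmb, a transmembrane glycoprotein of lipid-laden phagocytes, had 0.424 and 4.92 CPM in sham and 7718 and 6966 CPM at day 60 (11.39 ± 1.84, adjusted p = 0.00517). Igf1, insulin-like growth factor 1, had 0.243 and 0.665 CPM in sham and 347 and 403 CPM at day 60 (9.60 ± 1.40, adjusted p = 0.00348). Cd5l, a secreted scavenger receptor family protein of macrophages, had 0.364 and 0.772 CPM in sham against 393 and 330.0 CPM. Gdf15, a stress-induced cytokine of the TGF-beta family, had 1.33 and 0.559 CPM in sham and 414 and 329 CPM at day 60, 310.1 and 589 times as much within replicates 1 and 2. The other genes of the 15 largest increases included Hpgds, the hematopoietic prostaglandin D synthase, with 0.728 and 0.190 CPM against 278 and 194 CPM. They also included Ms4a7, a membrane protein of border-associated and infiltrating macrophages, with 3.03 and 9.74 CPM in sham and 1331 and 2591 CPM at day 60. Il7r, the interleukin-7 receptor, had 0.728 and 0.511 CPM in sham and 192 and 128 CPM at day 60. Pmp22 and Syngr1, which encode a tetraspan protein of peripheral myelin and a synaptic vesicle protein, rose 237 and 254 times and 338 and 419 times within replicates 1 and 2. Mmp12, Gdf15, Ms4a7, Il7r and Pmp22 were called in every fit that left out 1 of the 4 libraries.

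**Figure D3:**
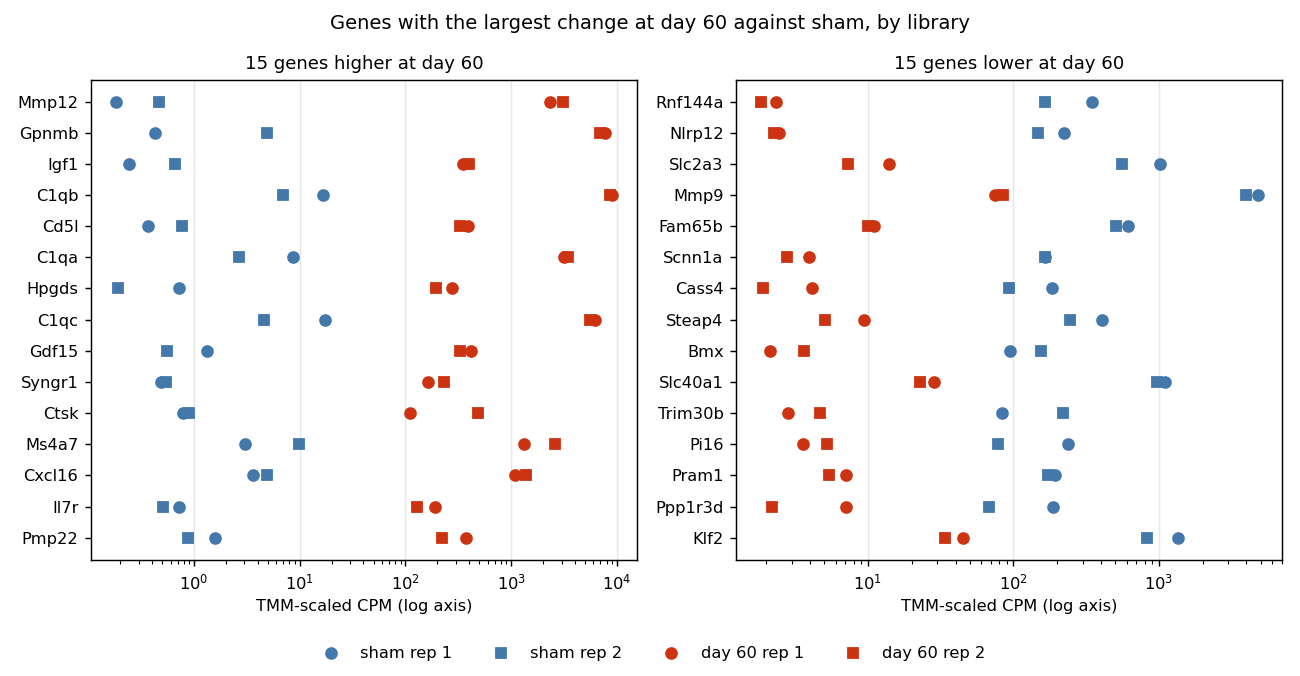
TMM-scaled CPM (log axis) of the 15 genes with the largest called increase (left) and the 15 with the largest called decrease (right) among genes whose mean log2 CPM reached 3, with 1 point per library. In all 30 genes both day 60 libraries lie on one side of both sham libraries.

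Genes of disease-associated microglia, a state described in models of neurodegeneration, were higher at day 60. Of 30 members tested 18 were called higher and 1 lower, and the median log2 fold change was 3.36. Beside this list and each list below that is set against sham, 4.96% of all genes were called higher and 2.89% lower. Spp1, which encodes osteopontin, had 10.1 and 71.0 CPM in sham and 5468 and 5211 CPM at day 60 (7.04 ± 1.24, adjusted p = 0.00761). Its 2 sham libraries differed from each other, so that the fold was 540.1 in replicate 1 and 73.4 in replicate 2. Trem2, a receptor for lipids and apolipoproteins, had 17.2 and 28.0 CPM in sham and 1238 and 3377 CPM at day 60 (6.68 ± 1.25, adjusted p = 0.0105). Cadm1, an adhesion molecule, went from 0.424 and 0.368 CPM to 88.2 and 82.2 CPM, and Cst7, a cathepsin inhibitor, rose 20.5 and 17.9 times within replicates 1 and 2. Axl, a receptor tyrosine kinase for apoptotic cells, had 37.6 and 22.2 CPM in sham and 436 and 340.0 CPM at day 60, and was called as well (adjusted p = 0.0143). Not all members moved this way. Csf1, the ligand of the receptor that keeps microglia alive, was called lower, at 193 and 76.0 CPM in sham and 21.8 and 12.4 CPM at day 60 (-2.97 ± 0.80, adjusted p = 0.0421), a call lost under upper-quartile scaling. Itgax, the integrin CD11c, had 44.2 and 58.9 CPM in sham and 103 and 228 CPM at day 60 without a call (adjusted p = 0.256). Clec7a, the beta-glucan receptor, lay lower in both day 60 libraries, at 896 and 567 CPM against 1483 and 1275 CPM, and was not called either (adjusted p = 0.316). Without sham replicate 1 only Cadm1 of this list was called, and without sham replicate 2 there were 5 members, Lpl, Spp1, Gpnmb, Igf1 and Cadm1.

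Lipid uptake, transport and storage followed the same direction, with 12 of 27 members called higher, none lower and a median of 2.08. Apoe, the main apolipoprotein of the brain, had 1550.0 and 1836 CPM in sham and 85014 and 91575 CPM at day 60 (5.70 ± 1.32, adjusted p = 0.0260), 54.8 and 49.9 times as much within replicates 1 and 2. Lpl, lipoprotein lipase, had 104 and 126 CPM in sham and 4433 and 4621 CPM at day 60 (5.30 ± 0.80, adjusted p = 0.00388). In both genes the replicates of each group lay close together and far from the other group. Pltp, which transfers phospholipids between lipoproteins, had 57.8 and 146 CPM against 2417 and 6275 CPM, and its sequence is overlapped by Ctsa on the opposite strand. Fabp5, a fatty acid binding protein, had 20.4 and 56.4 CPM in sham and 474 and 2113 CPM at day 60 (5.07 ± 1.37, adjusted p = 0.0456). Cd36, a scavenger receptor for oxidised lipoproteins and fatty acids, had 85.8 and 143 CPM in sham and 623 and 683 CPM at day 60, 7.26 and 4.77 times as much. The remaining called members were Abca1, Nr1h3, Fabp4, Plin2, Nceh1, Lipa and Pparg, which cover cholesterol export, its transcriptional control, lipid droplets and cholesteryl ester hydrolysis. Abca1, the cholesterol exporter, was the only member called in every fit that left out 1 of the 4 libraries. It had 11.5 and 4.12 CPM in sham and 311 and 191 CPM at day 60, and it is singled out here after its values were seen.

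Among 12 nuclear receptors of sterol and lipid metabolism 3 were called higher. Nr1h3, which encodes the liver X receptor alpha, had 4.43 and 7.09 CPM in sham and 119 and 176 CPM at day 60 (4.68 ± 0.72, adjusted p = 0.00405). Pparg, the fatty acid sensor that drives Cd36 in macrophages, had 29.1 and 35.5 CPM in sham and 126 and 143 CPM at day 60 (2.05 ± 0.44, adjusted p = 0.0188). Rora, a retinoid-related orphan receptor, had 1.33 and 2.79 CPM against 14.7 and 13.6 CPM. The median of the list was -0.07, and without sham replicate 1 none of these genes was called, without sham replicate 2 only Nr1h3. Cholesterol synthesis had the opposite sign, with 2 of 20 members called lower, none called higher and a median of -0.70. Sqle, squalene epoxidase, had 23.8 and 31.6 CPM in sham and 3.98 and 2.60 CPM at day 60 (-3.08 ± 0.85, adjusted p = 0.0461). Sc5d, sterol C5 desaturase, had 104 and 96.0 CPM in sham and 16.4 and 13.5 CPM at day 60 (-2.74 ± 0.58, adjusted p = 0.0177). Neither was called when either sham library was left out, and under upper-quartile scaling 1 gene of the list was called.

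In the lysosome list 10 of 32 members were called higher and 1 lower, and 28 had both day 60 libraries above both sham libraries, which is 28 of 32 against 33.9% of all genes. The median was 1.98. Atp6v0d2, a subunit of the proton pump that acidifies lysosomes of macrophages and osteoclasts, had 0 and 0.0713 CPM in sham and 879 and 740.1 CPM at day 60. Ctsk, the collagen-degrading cathepsin of osteoclasts, had 0.788 and 0.903 CPM in sham and 110.3 and 488 CPM at day 60 (8.46 ± 1.57, adjusted p = 0.0121). Ctsl had 51.2 and 84.5 CPM against 2168 and 3661 CPM, and its fold was 42.3 and 43.3 within replicates 1 and 2. Ctsb, a cathepsin abundant in all 4 libraries, had 1888 and 2249.6 CPM in sham and 24531 and 33050.0 CPM at day 60 (3.80 ± 0.81, adjusted p = 0.0188). Ctsd, the main aspartic protease of lysosomes, had 1906 and 2038 CPM and 16862 and 21958 CPM (3.30 ± 0.89, adjusted p = 0.0432). Tfeb, the transcription factor that drives lysosomal genes, was the member called lower, at 246 and 188 CPM in sham and 78.9 and 79.1 CPM at day 60 (-1.46 ± 0.39, adjusted p = 0.0412), a call lost under upper-quartile scaling. Without sham replicate 1 no member was called and without sham replicate 2 only Atp6v0d2 was.

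Of 15 genes of antigen presentation by MHC class II 8 were called higher at day 60, with none called lower and a median of 2.53. Class II molecules carry peptides of engulfed proteins to CD4+ T cells, and their genes are switched on together by the activator Ciita, which is held at their promoters by factors that include NF-Y bound at a CCAAT box. Of the 15 members 11 had a promoter in the RefSeq table for the GRCm38.p6 build, with 12 promoters in all. In the 250 bases before the start, 10 of the 11 held the letters CCAAT on one strand or the other, and 5 of the 6 called members with a promoter did. Of all 32851 promoters 33.8% held CCAAT in a window of that length. An interferon element, searched as GAAA, any 2 bases and GAAA again on both strands, was in the window of 1 member, Ctss, and in 2.98% of all promoters. A match of letters is a description of the window and not a bound site. The uncalled members H2-Eb2, H2-DMb1, H2-DMb2, Rfx5 and Rfxank held CCAAT too, so its presence did not set called members apart. Of the called members, Ctss held none. In H2-DMa it lay 198 bases before the start in one promoter and was absent from the other. The 150 bases before the start are given for 4 called members that hold CCAAT within them. They run 5′ to 3′ on the strand of the gene, with CCAAT or its reverse complement in capitals.
H2-Aa, chr17:34287824-34287973, minus strand: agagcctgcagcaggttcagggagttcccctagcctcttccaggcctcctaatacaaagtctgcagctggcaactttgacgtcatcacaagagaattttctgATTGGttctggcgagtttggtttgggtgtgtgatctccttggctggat
H2-Eb1, chr17:34305717-34305866, plus strand: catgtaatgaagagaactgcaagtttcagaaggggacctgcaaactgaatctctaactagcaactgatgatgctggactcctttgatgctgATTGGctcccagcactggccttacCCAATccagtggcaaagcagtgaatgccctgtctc
H2-Oa, chr17:34092229-34092378, plus strand: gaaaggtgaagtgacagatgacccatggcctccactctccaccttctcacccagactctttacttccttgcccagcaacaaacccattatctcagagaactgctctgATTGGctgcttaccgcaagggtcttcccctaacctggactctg
H2-Ob, chr17:34238755-34238904, plus strand: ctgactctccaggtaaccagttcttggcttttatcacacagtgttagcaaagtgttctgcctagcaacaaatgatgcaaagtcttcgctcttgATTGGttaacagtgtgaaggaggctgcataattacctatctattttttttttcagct
The box nearest to the start lay 48 bases before it in H2-Aa, 35 in H2-Eb1, 43 in H2-Oa and 57 in H2-Ob, and H2-Eb1 held 2.

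Among the called class II members the chains of the peptide-presenting molecules had the largest changes. A member that was not called reached a larger log2 fold change, 6.11. H2-Eb1, a beta chain, had 202 and 366 CPM in sham and 7418 and 18291 CPM at day 60 (5.50 ± 0.92, adjusted p = 0.00564). H2-Aa, the alpha chain whose promoter is shown above, had 317 and 486 CPM in sham and 9600.2 and 18187 CPM at day 60 (5.11 ± 0.92, adjusted p = 0.00822). H2-Ab1, its partner, had 584 and 910.3 CPM and 15407 and 30281 CPM (4.93 ± 0.92, adjusted p = 0.0102). Cd74, the invariant chain that guides class II molecules to the endosome, had 2058 and 4120.4 CPM in sham and 34132 and 67815 CPM at day 60 (4.04 ± 0.80, adjusted p = 0.0137). In each of these 4 genes replicate 2 was above replicate 1 in both groups, and the fold within replicates 1 and 2 was 36.7 and 49.9 for H2-Eb1 and 16.6 and 16.5 for Cd74. Ctss, the cathepsin that trims the invariant chain, and H2-DMa, H2-Oa and H2-Ob, which control peptide loading, were called as well. Ciita itself had 26.5 and 16.6 CPM in sham and 82.0 and 79.7 CPM at day 60, higher in both libraries and not called (1.91 ± 0.86, adjusted p = 0.180). Of this list no member was called without sham replicate 1, and H2-Oa alone without sham replicate 2. Markers of dendritic cells, which also transcribe class II genes, summed to 207 and 336 CPM in sham and 501 and 409 CPM at day 60, and B cell markers to 163 and 173 CPM and 271 and 232 CPM. The part of these cells in the class II change was not tested.

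**Figure D4:**
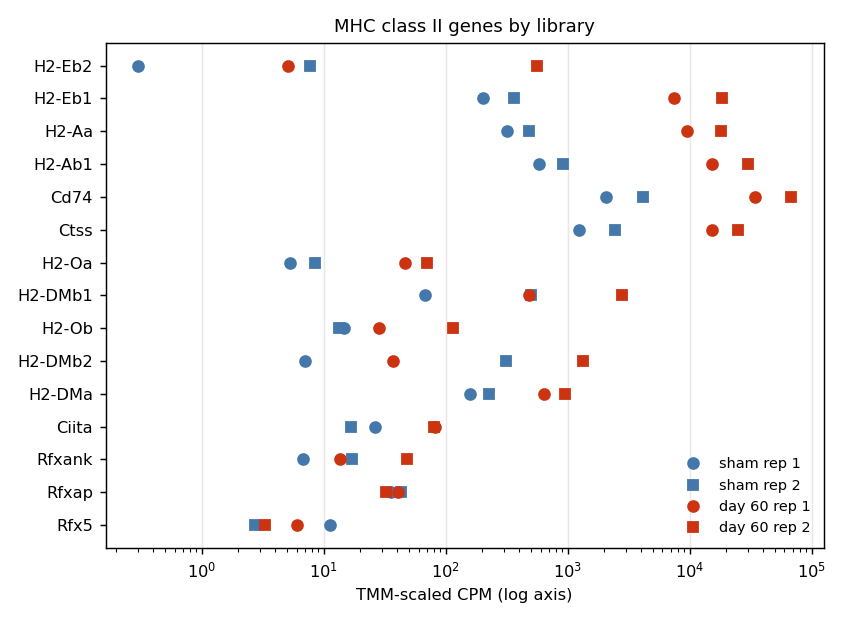
TMM-scaled CPM (log axis) of the 15 MHC class II genes in each sham and day 60 library. H2-Eb1, H2-Aa, H2-Ab1 and Cd74 lie apart between the groups, whereas the regulators Rfx5 and Rfxap overlap.

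MHC class I had 2 of 15 members called higher and none lower, beside 4.96% and 2.89% of all genes, and a median of 0.44. H2-M2, a nonclassical class I gene, had no count in sham and 59.5 and 40.7 CPM at day 60, at least 1682-fold higher against a floor of 3 counts over the group. H2-M3, which presents formylated peptides, had 33.0 and 50.8 CPM in sham and 136 and 168 CPM at day 60 (1.86 ± 0.46, adjusted p = 0.0332). Neither was called when either sham library was left out. Of 12 co-stimulatory and checkpoint ligands 4 were called higher and none lower. Tnfsf9, the 4-1BB ligand, had 2.18 and 2.41 CPM in sham and 224 and 243 CPM at day 60 (6.67 ± 0.51, adjusted p = 0.000202). Cd83, a marker of activated antigen-presenting cells, had 52.9 and 44.8 CPM in sham and 2709.8 and 1879 CPM at day 60 (5.55 ± 0.64, adjusted p = 0.000926). Both had replicates close together in each group, and both were called in every fit that left out 1 of the 4 libraries. Cd86, a ligand of CD28, had 36.0 and 36.7 CPM against 143 and 121 CPM, and Havcr2, which encodes the checkpoint receptor TIM-3, had 18.1 and 15.1 CPM against 87.7 and 42.7 CPM.

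Of 17 complement genes 6 were called higher and none lower, and the median was 3.02. Those with the largest changes, C1qa, C1qb and C1qc, encode the 3 chains of C1q, which tags cells and synapses for removal. C1qa had 8.61 and 2.66 CPM in sham and 3150.5 and 3487 CPM at day 60 (9.21 ± 1.36, adjusted p = 0.00353). C1qb had 16.4 and 6.95 CPM and 9082 and 8531 CPM (9.56 ± 1.41), and C1qc had 17.3 and 4.59 CPM and 6251 and 5546 CPM (9.08 ± 1.41). In all 3 genes sham replicate 1 was above sham replicate 2 and the day 60 libraries were far above both. C3ar1, the receptor for the C3a fragment, had 6.00 and 2.19 CPM in sham and 937 and 532 CPM at day 60 (7.50 ± 1.09, adjusted p = 0.00337). C2 and Cfb were the other members called. C3, the central component, lay lower in both day 60 libraries, at 84.2 and 124 CPM against 400.3 and 288 CPM, and was not called (-1.72 ± 0.80, adjusted p = 0.188). Without sham replicate 1 there were 4 members called, C1qa, C1qb, C1qc and C3ar1, and without sham replicate 2 there were 3, C1qa, C3ar1 and Serping1.

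Of 21 receptors and bridging molecules of engulfment 8 were called higher and none lower, with a median of 2.52 that became 0.98 with genes at 0 in one group placed at their bound. Mertk, a receptor kinase for apoptotic cells, had 1.82 and 0.903 CPM in sham and 121 and 95.5 CPM at day 60 (6.34 ± 0.86, adjusted p = 0.00251). Gas6, the ligand that bridges apoptotic cells to Mertk and Axl, had 0.424 and 0.963 CPM in sham and 141 and 165 CPM at day 60 (7.73 ± 1.14, adjusted p = 0.00348). Both members of this ligand and receptor pair thus stood far above sham in both day 60 libraries. Stab2, a scavenger receptor for phosphatidylserine and hyaluronan, had no count in sham and 6.08 and 6.39 CPM at day 60, at least 209-fold higher. The others were C1qa, Mfge8, Stab1, Axl and Itgb5. Without sham replicate 1 Mertk, Mfge8 and C1qa were called, and without replicate 2 also Gas6. Among 8 genes of Fc gamma receptors and their signalling only Fcgr1, the high-affinity IgG receptor, was called, at 40.4 and 65.2 CPM in sham and 388 and 533 CPM at day 60 (3.12 ± 0.51, adjusted p = 0.00545), a call lost without sham replicate 1.

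Chemokines had the largest median of the gene lists, 4.67, with 12 of 23 members called higher and none lower. Ccl8, a ligand for monocyte and T cell receptors, had no count in sham and 85.9 and 175 CPM at day 60, at least 4383-fold higher. Cxcl16, the ligand of CXCR6 on T cells, had 3.58 and 4.93 CPM in sham and 1097 and 1376 CPM at day 60 (8.18 ± 0.68, adjusted p = 0.000202). Its fold was 307 and 279 within replicates 1 and 2, and it is overlapped by Zmynd15 on the opposite strand, whose reads cannot be told apart because the strand setting of the counting is not given. Ccl22 had 0 and 1 counts in sham and 89.4 and 37.6 CPM at day 60, and Cxcl13, which attracts B cells, had 0 and 3 counts in sham and 14.7 and 13.4 CPM at day 60. The others called were Ccl3, Ccl4, Ccl7, Ccl12, Cxcl9, Cxcl10, Cxcl14 and Cx3cl1. Ccl2, the monocyte chemoattractant, did not follow: it had 15.1 and 34.0 CPM in sham and 19.2 and 22.7 CPM at day 60, and the groups overlapped (-0.23 ± 0.59, adjusted p = 0.846). Ccl5 had 4.49 and 16.2 CPM in sham and 45.1 and 77.1 CPM at day 60 and was not called (adjusted p = 0.0876). Without sham replicate 1 there were 3 chemokines called and without sham replicate 2 there were 6, and Cxcl10 and Cxcl16 were in both. Ccr2, the receptor of classical monocytes, had 959.6 and 565 CPM in sham and 294 and 142 CPM at day 60 without a call.

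Among 25 cytokines and NF-kB targets 5 were called higher, namely Il12b, Il1a, Il6, Tnf and Sod2, and none lower. The median was 0.62. Il1a had 1.21 and 1.07 CPM in sham and 129 and 82.4 CPM at day 60 (6.54 ± 0.92, adjusted p = 0.00290), and Tnf had 33.9 and 21.9 CPM and 442 and 421 CPM (3.95 ± 0.64, adjusted p = 0.00528). Il12b, the p40 subunit shared by IL-12 and IL-23, had 0 and 2 counts in sham and 10.0 and 12.3 CPM at day 60. Il6 had 0.364 and 0.879 CPM in sham and 12.6 and 18.1 CPM at day 60 (4.57 ± 1.04, adjusted p = 0.0242). Il1b went the other way in both libraries, at 5593 and 7789.7 CPM in sham and 2620.5 and 3584 CPM at day 60, and was not called (-1.11 ± 0.60, adjusted p = 0.256). Il1a and Il1b, which encode ligands of one receptor, thus lay on opposite sides of sham. Il1a and Il12b were called in every fit that left out 1 of the 4 libraries, and Tnf was not called when either sham library was left out.

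Of 32 interferon response genes 3 were called higher at day 60, beside 4.96% of all genes, and none lower, and the median was 0.60. The called members were Cxcl9, Cxcl10 and Ifi44, of which Cxcl10 alone was called in each fit that left out 1 of the 4 libraries. Cxcl9 had 0.243 and 0.535 CPM in sham and 33.0 and 23.4 CPM at day 60 (6.11 ± 1.45, adjusted p = 0.0282), and Cxcl10, a second CXCR3 ligand, had 10.9 and 11.1 CPM and 224 and 176 CPM (4.19 ± 0.61, adjusted p = 0.00341). Isg15, a ubiquitin-like protein induced by interferon, had 42.1 and 47.5 CPM in sham and 70.1 and 56.8 CPM at day 60 (0.50 ± 0.56, adjusted p = 0.606). Ifit3 had 122 and 127 CPM against 207 and 203 CPM and was not called (adjusted p = 0.335), and 51.2% of its 50-base words are shared with Ifit3b. Ifnb1, which encodes interferon beta, is no member of the list and was chosen after its values were seen. It had no count in sham and 27.8 and 19.7 CPM at day 60, at least 798-fold higher, and was called in every fit that left out 1 of the 4 libraries.

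Of 27 genes of matrix proteases, their inhibitors and matrix proteins 4 were called higher and 2 lower, beside 4.96% and 2.89% of all genes. The median was 0.39. Besides Mmp12, Mmp14, a membrane-anchored collagenase, had 0.667 and 2.95 CPM in sham and 417 and 367 CPM at day 60 (7.72 ± 0.71, adjusted p = 0.000316). Mmp13, a secreted collagenase, had 0.364 and 0.250 CPM and 9.41 and 9.42 CPM (4.97 ± 1.08), and Sparc, a matrix-binding glycoprotein, had 10.5 and 17.8 CPM and 174 and 212 CPM (3.77 ± 0.98). Mmp9, the gelatinase stored in neutrophil granules, was called lower, at 4775 and 3964 CPM in sham and 74.1 and 84.5 CPM at day 60 (-5.78 ± 1.42, adjusted p = 0.0331). Fn1, fibronectin, had 943 and 414 CPM in sham and 34.8 and 41.4 CPM at day 60 (-4.15 ± 0.91, adjusted p = 0.0218) and is also a monocyte marker. Mmp12 and Mmp14 were called when either sham library was left out, and Mmp9 and Fn1 were not. Of 19 growth factors 6 were called higher, namely Igf1, Gdf15, Gas6, Pdgfa, Vegfb and Areg, and Csf1 was called lower. Pdgfa, a mitogen of oligodendrocyte precursors and fibroblasts, had 0.424 and 0.392 CPM in sham and 29.3 and 36.4 CPM at day 60 (6.34 ± 0.84, adjusted p = 0.00234). Gdf15 and Pdgfa were called when either sham library was left out, and Igf1 and Gas6 only without replicate 2.

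Genes by which homeostatic microglia are recognised were higher at day 60 than in sham, with 9 of 25 called higher, none lower and a median of 1.98. In sham the neutrophil and monocyte sums exceeded the microglia sum, and their part in this difference was not tested. Against day 21 the list lay lower at day 60: 13 of 25 had both day 60 libraries below both day 21 libraries, against 22% of all genes. None had both above, against 23.9% of all genes. The median of the list was -1.26, and edgeR called no member. Tmem119, a membrane protein of microglia, had 16.9 and 2.48 CPM in sham and 187 and 99.0 CPM at day 60 (3.89 ± 1.03, adjusted p = 0.0401). Fcrls, an Fc receptor-like protein, had 10.4 and 4.03 CPM in sham and 229 and 258 CPM at day 60 (5.09 ± 0.98, adjusted p = 0.0121). Olfml3, a secreted protein, had 6.06 and 1.21 CPM and 207 and 172 CPM, and Siglech, a sialic acid binding lectin also found in plasmacytoid dendritic cells, had 3.58 and 0.202 CPM and 66.2 and 76.9 CPM. In each of these 4 genes sham replicate 2 was the lowest library. Other members were not called. P2ry12, the ADP receptor, had 47.5 and 17.6 CPM in sham and 179 and 102 CPM at day 60 (2.11 ± 0.76, adjusted p = 0.104). Cx3cr1, the fractalkine receptor, had 392 and 149 CPM in sham and 235 and 103 CPM at day 60, with overlapping groups (-0.68 ± 0.77, adjusted p = 0.613). Csf1r had 1687 and 1234 CPM and 1352 and 2354 CPM and overlapped too (0.34 ± 0.76, adjusted p = 0.814). Without sham replicate 1 Olfml3, Siglech and Mertk were called, and without sham replicate 2 Mertk alone.

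Of 22 lineage factors of microglia and macrophages 2 were called higher, beside 4.96% of all genes. Sall1, which maintains the identity of microglia, had 0.424 and 0.214 CPM in sham and 4.17 and 2.34 CPM at day 60 (3.42 ± 0.92, adjusted p = 0.0430). Bhlhe41 had 0.485 and 0.428 CPM and 13.5 and 10.0 CPM (4.70 ± 0.96, adjusted p = 0.0159). Of 12 markers of border-associated macrophages 5 were called higher, namely Cd209f, Ms4a7, Folr2, Stab1 and Mrc1. Cd209f, a C-type lectin, had no count in sham and 3.83 and 9.95 CPM at day 60, at least 231-fold higher. Folr2, a folate receptor of resident macrophages, had 0 and 0.487 CPM in sham and 44.4 and 66.9 CPM at day 60, and Stab1, a scavenger receptor, had 7.15 and 6.27 CPM and 102 and 128 CPM. F13a1, the factor XIII chain also made by monocytes, was called lower, at 1305 and 783 CPM in sham and 77.9 and 59.5 CPM at day 60 (-3.93 ± 0.95, adjusted p = 0.0296). Of the markers of T and NK cells 3 of 17 were called higher, Il7r, Cd4 and Cd3g, and Gzma, a granzyme of cytotoxic cells, was lower. Cd4, also transcribed by macrophages, had 1.27 and 0.535 CPM in sham and 20.7 and 16.1 CPM at day 60, and Cd3g, a chain of the T cell receptor complex, had 1.27 and 1.68 CPM and 14.3 and 24.2 CPM. Gzma had 14.1 and 34.3 CPM in sham and 0.612 and 1.39 CPM at day 60 (-4.58 ± 0.93, adjusted p = 0.0151). Of the genes of these 3 lists, Mrc1, Ms4a7 and Il7r were called when either sham library was left out, and Siglec1, Cd4 and Gzma only without replicate 1.

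The genes that were lower at day 60 included markers of neutrophils and red cells. Of 14 neutrophil markers 12 had both day 60 libraries below both sham libraries, against 26.9% of all genes, and 2 were called. Csf3r, the G-CSF receptor, had 3806 and 2518 CPM in sham and 163 and 149 CPM at day 60 (-4.35 ± 0.87, adjusted p = 0.0140), and Mmp9 was the second. S100a8, a calcium-binding alarmin and the lead marker of neutrophils, was chosen after its values were seen and had 3397 and 12210.0 CPM in sham and 70.1 and 171 CPM at day 60. It was not called (-6.02 ± 1.88, adjusted p = 0.0782), and its sham libraries differed from each other. Of 14 monocyte markers 13 lay lower in both day 60 libraries, and Cd177 and Fn1 were called. Cd177, which is also a neutrophil surface protein, had 422 and 753 CPM in sham and 16.6 and 29.2 CPM at day 60 (-4.68 ± 1.16, adjusted p = 0.0337). Of the erythroid markers, Alas2, the first enzyme of heme synthesis in red cell precursors, had 181 and 243 CPM in sham and 0.0765 and 0.202 CPM at day 60. Itga2b, the platelet and megakaryocyte integrin, had 30.4 and 33.3 CPM in sham and 0.0765 and 0.226 CPM at day 60 and was called lower (adjusted p = 0.0434). When a sham library was left out, none of the neutrophil, monocyte and erythroid markers was called except Csf3r without replicate 2, and none was when either day 60 library was left out. These markers are themselves members of the sums given at the start, so that both move together by construction. The part of cell content was not tested.

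The 15 largest decreases among genes whose mean log2 CPM reached 3 were led by Rnf144a, an E3 ubiquitin ligase, with 349 and 164 CPM in sham and 2.33 and 1.84 CPM at day 60 (-6.95 ± 1.33, adjusted p = 0.0130). Nlrp12, an inhibitory NOD-like receptor of neutrophils and other myeloid cells, had 223 and 147 CPM and 2.45 and 2.25 CPM (-6.30 ± 1.44). Slc2a3, the glucose transporter GLUT3, had 1026 and 558 CPM in sham and 13.8 and 7.34 CPM at day 60, with log2 fold changes of -6.21 and -6.25 within replicates 1 and 2. Bmx, a kinase of the Tec family, had 95.3 and 155 CPM against 2.10 and 3.64 CPM, and Steap4, a metalloreductase, had 407 and 245 CPM against 9.45 and 5.03 CPM. Slc40a1, which encodes the iron exporter ferroportin, had 1098 and 968 CPM in sham and 28.3 and 22.7 CPM at day 60 (-5.34 ± 0.71, adjusted p = 0.00234). It was 1 of the 3 lower genes called in every fit that left out 1 of the 4 libraries. The other 2 were Xpc, a DNA damage sensor, with 99.4 and 98.6 CPM against 16.8 and 16.3 CPM, and Mtus1, with 333 and 308 CPM against 36.6 and 28.2 CPM. The largest decreases also took in Pram1, 84.3% of whose 50-base words are shared with Gm20507, so that its counts are uncertain.

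Klf2, the flow-responsive transcription factor that keeps myeloid cells quiescent, had 1357 and 833 CPM in sham and 45.4 and 33.9 CPM at day 60 (-4.79 ± 0.79, adjusted p = 0.00545) and belonged to the immediate early genes. Of 22 genes of that list 3 were called lower and 1 higher, with a median of -1.39. Egr1, induced within minutes of stimulation, had 3666 and 1734 CPM in sham and 208 and 89.7 CPM at day 60 (-4.18 ± 0.65, adjusted p = 0.00448), and Ier2 had 1734 and 1259 CPM and 275 and 146 CPM (-2.83 ± 0.61). Nr4a2 was the one called higher, at 4.18 and 2.71 CPM in sham and 16.1 and 12.2 CPM at day 60, a call lost with DESeq2 size factors, with which 5 members were called lower. Fos had 4750.4 and 4257 CPM and 2438 and 1920.4 CPM and was not called (-1.05 ± 0.53, adjusted p = 0.225). Klf2 and Egr1 were called when either sham library was left out, and no gene of the list was called without day 60 replicate 2.

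Oxidative stress and iron genes were called in both directions, 3 of 26 higher and 2 lower. Beside this list and those that follow here, 4.96% of all genes were called higher and 2.89% lower. Blvrb, biliverdin reductase B, had 19.8 and 36.6 CPM in sham and 159 and 459 CPM at day 60, Prdx1, a peroxiredoxin, had 151 and 333 CPM and 1106 and 2369.9 CPM, and Srxn1, sulfiredoxin, had 9.09 and 4.94 CPM and 89.7 and 33.0 CPM, a call lost with DESeq2 size factors. Gsr, glutathione reductase, was lower at 222 and 213 CPM against 3016 and 3575 CPM in sham (-3.92 ± 0.81, adjusted p = 0.0164). Of 21 genes of glycolysis and hypoxia 3 were called lower and 1 higher. Slc16a3, the lactate exporter, had 822 and 397 CPM in sham and 63.7 and 57.1 CPM at day 60, Gpi1, glucose phosphate isomerase, had 569 and 622 CPM and 141 and 194 CPM, and Egln3, an oxygen sensor, had 17.2 and 15.6 CPM and 3.52 and 3.18 CPM. Among 20 Toll-like receptors and adaptors, Tlr3 and Tlr1 were called higher and Tlr6, Tlr13 and Myd88 lower. Myd88, the shared adaptor of most of these receptors, had 489.5 and 459 CPM in sham and 131 and 109 CPM at day 60 (-1.98 ± 0.50, adjusted p = 0.0351). Tlr13, the sensor of bacterial ribosomal RNA, had 742 and 424 CPM and 154 and 80.6 CPM. The calls of Tlr13 and Slc16a3 were lost under upper-quartile scaling. In the unfolded protein response list 1 of 21 genes was called, Eif2ak3, the endoplasmic reticulum kinase PERK, lower at 10.9 and 8.32 CPM against 102 and 62.3 CPM. Of the genes of these 4 lists only Slc40a1 was called when either sham library was left out, and Adm and Eif2ak3 without replicate 2.

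Of 20 integrins 2 were called higher and 3 lower, beside 4.96% and 2.89% of all genes. Itga9, which binds osteopontin and tenascin, had 0.364 and 0.190 CPM in sham and 31.7 and 26.2 CPM at day 60 (6.81 ± 0.65, adjusted p = 0.000316) and was called in every fit that left out 1 of the 4 libraries. Itgal, the leukocyte integrin LFA-1, was lower, at 949.7 and 491 CPM in sham and 39.6 and 41.3 CPM at day 60 (-4.16 ± 1.03, adjusted p = 0.0331). Cell cycle genes were higher in 7 of 36 members and lower in 1, with a median of 1.82 and 28 members apart upward, beside 4.96% of all genes called higher and 33.9% apart upward. Cdk1, the mitotic kinase, had 0.243 and 0.618 CPM in sham and 8.11 and 6.91 CPM at day 60 (4.03 ± 0.89, adjusted p = 0.0222), and Birc5 had 0.606 and 1.02 CPM and 6.62 and 14.6 CPM. Kif23, a kinesin of cytokinesis, ran against the list, at 128 and 143 CPM in sham and 5.43 and 4.56 CPM at day 60 (-4.77 ± 1.06, adjusted p = 0.0229). Mki67, the usual marker of dividing cells, had 10.8 and 4.72 CPM in sham and 7.73 and 3.64 CPM at day 60 with overlapping groups, and Top2a had 1.58 and 1.44 CPM and 6.81 and 8.07 CPM without a call. No cell cycle gene was called without sham replicate 1 and only Tyms was without sham replicate 2.

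Some lists had no gene called by edgeR. Of 29 cytosolic ribosomal proteins none was called by edgeR or DESeq2, 1 was higher at an unadjusted p under 0.05, and the median was 0.24. Of 30 genes of oxidative phosphorylation none was called by either tool, 3 were higher at an unadjusted p under 0.05, and the median was 0.47. Of 10 B cell markers none was called by edgeR, 1 was by DESeq2, and 1 was higher at an unadjusted p under 0.05. Of the other marker lists, astrocyte and neuron lists had no call by edgeR and 1 and 0 by DESeq2, with 1 gene higher at an unadjusted p under 0.05 in each. Kdr was called higher and Flt1 lower among 10 endothelial markers, Mbp lower among 10 oligodendrocyte markers, Acta2 lower among 10 pericyte and fibroblast markers and Tpsb2 higher among 8 mast cell and basophil markers. Over all genes 4.96% were called higher and 2.89% lower, so that such single calls are no result about these cell types. Mbp, myelin basic protein, had 539 and 239 CPM in sham and 50.8 and 46.9 CPM at day 60. Of 12 dendritic cell markers Siglech and Klrb1b were called higher.

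Day 60 was next compared with day 90, the last time of the course. This comparison and that with day 21 share the day 60 libraries with the comparison with sham. The edgeR test called no gene (442 genes at an unadjusted p under 0.05, lowest adjusted p 0.334), limma-voom called none, and DESeq2 called 23, of which 20 were higher (0.144% of the genes tested) and 3 lower at day 60. In this comparison 22.6% of all genes had both day 60 libraries above both day 90 libraries, and the median over all genes was -0.07. Of the 32 interferon response genes 29 did so, with a median of 2.09, and 10 were among the 20 called by DESeq2. Isg15 had 6.77 and 4.17 CPM at day 90 and 70.1 and 56.8 CPM at day 60, with an edgeR log2 fold change of 3.54 ± 0.62 (adjusted p = 0.334). Irf7, the master regulator of interferon production, had 74.7 and 106 CPM at day 90 and 581 and 808 CPM at day 60 (2.94 ± 0.53, adjusted p = 0.349). Ifit3 had 32.5 and 26.6 CPM at day 90 and 207 and 203 CPM at day 60 (2.79 ± 0.49, adjusted p = 0.334), and Rsad2, the antiviral protein viperin, had 27.8 and 25.5 CPM and 170.0 and 136 CPM. Ifnb1 had 1.73 and 1.89 CPM at day 90 and 27.8 and 19.7 CPM at day 60. The sham levels of Isg15, 42.1 and 47.5 CPM, lay between those of the 2 times. Irf7, Rsad2 and Ifnb1 were chosen after their values were seen.

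**Figure D5:**
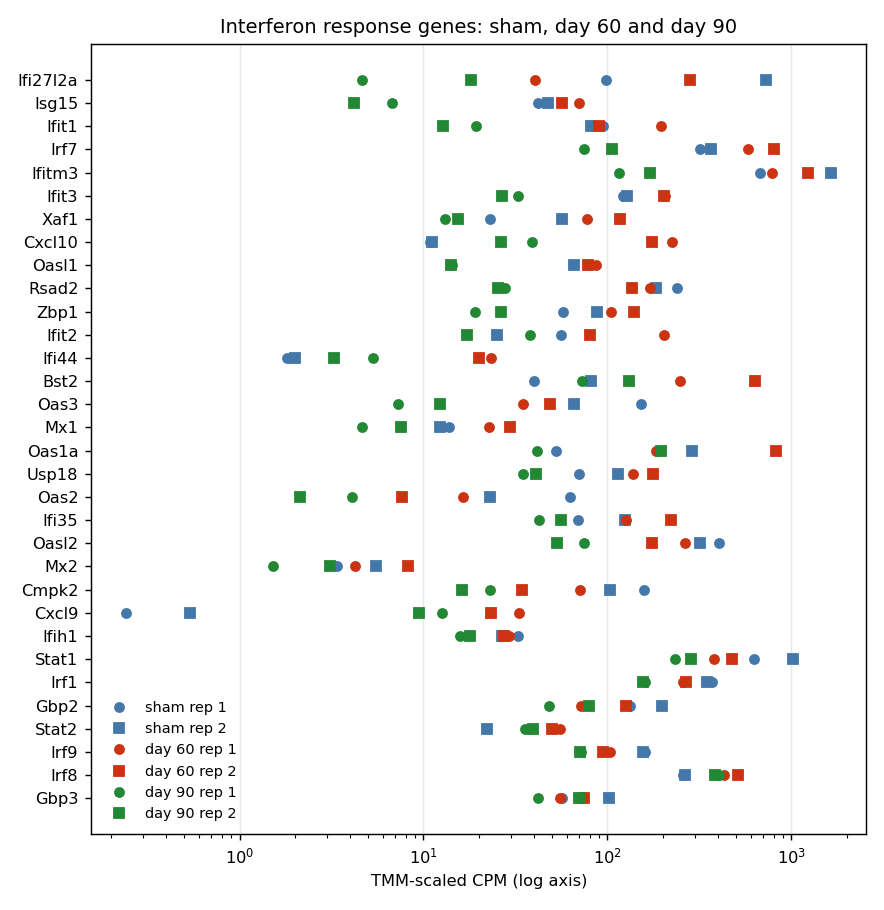
TMM-scaled CPM (log axis) of 32 interferon response genes in each sham, day 60 and day 90 library, 1 point per library. In 29 of the 32 genes both day 60 libraries lie above both day 90 libraries.

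Of 23 chemokines 16 had both day 60 libraries above both day 90 libraries and 1 below, and of 25 cytokines and NF-kB targets 15 were above and 3 below. None was called by edgeR and 2 of each list by DESeq2. Tnf had 88.1 and 68.9 CPM at day 90 against 442 and 421 CPM at day 60, and Ccl2 had 4.93 and 5.80 CPM against 19.2 and 22.7 CPM. Of these Tnf was called by DESeq2. Among 36 cell cycle genes 28 had both day 60 libraries below both day 90 libraries, against 28.8% of all genes, with a median of -0.96. Top2a had 23.5 and 36.4 CPM at day 90 and 6.81 and 8.07 CPM at day 60 (-2.01 ± 0.89, adjusted p = 0.939), and Mki67 had 19.8 and 13.9 CPM and 7.73 and 3.64 CPM. Mfge8, a bridging molecule of engulfment chosen after its values were seen, had 914 and 1025 CPM at day 90 and 258 and 286 CPM at day 60 and was called lower by DESeq2. Of the genes with large increases against sham, Gpnmb had 7747 and 7900.5 CPM at day 90, Mmp12 had 2256 and 2898 CPM and Lpl had 4356 and 5039 CPM. Apoe was higher in both day 60 libraries than at day 90, where it had 36792 and 36391 CPM, without a call (1.27 ± 1.10, adjusted p = 0.939).

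Against day 21, edgeR called 3 genes, 0.0216% of those tested, all higher at day 60. Pparg had 8.59 and 4.90 CPM at day 21 and 126 and 143 CPM at day 60 (4.32 ± 0.48, adjusted p = 0.0160). Cd36 had 15.1 and 27.5 CPM at day 21 and 623 and 683 CPM at day 60 (4.94 ± 0.65, adjusted p = 0.0369), and Mmp12 had 21.6 and 61.9 CPM and 2316 and 3109.7 CPM (6.02 ± 0.81, adjusted p = 0.0369). In sham, Pparg and Cd36 stood at 29.1 and 35.5 CPM and 85.8 and 143 CPM, above both day 21 libraries. DESeq2 called 362 genes, 154 higher (1.11%) and 208 lower (1.5%), and limma-voom 13. Both day 60 libraries lay above both day 21 libraries in 23.9% of all genes and below them in 22%. With 1 library left out the number was 0 for each day 60, day 7 and day 90 library and for day 21 replicate 2. It was 1 for each sham library, 2 for each day 3 library, 6 for each day 1 library and 360 for day 21 replicate 1. The 3 genes were among the 6 and the 360. Of the class II genes H2-Aa had 3101 and 543 CPM at day 21 and 9600.2 and 18187 CPM at day 60 (2.93 ± 0.83, adjusted p = 0.321), and Lpl had 217 and 1381 CPM and 4433 and 4621 CPM (2.50 ± 0.70, adjusted p = 0.321). Both were apart between the times without a call by edgeR, and the 2 day 21 libraries differed from each other by several times in both genes.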

How the data were processed

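RNA of sorted cortical microglia was measured by RNA sequencing in 14 libraries, 2 in each of 7 groups, of which the 2 day 60 and 2 sham libraries are described here. Groups and replicate numbers came from the sample titles. The authors deposited integer read counts of 14084 genes as 1 table, and the 14 files of single libraries hold equal values. Per the submitters' processing notes, the reads were handled with HTSeq 0.6.1, Bowtie2 2.3.4.2 and build mm9. For annotation, strand and multi-mapping, the sources used here give no setting. The depth of replicate 2 exceeded that of replicate 1 by 6.60 to 9.19 times. The 2 libraries of a group differed by more than sampling noise (chi-square per degree of freedom 536 at day 60 and 507 in sham).

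Counts were analysed with edgeR 4.0.16 in R 4.3.3. The filter by group removed 223 genes, libraries were scaled by TMM, and 1 quasi-likelihood model with robust dispersions and a mean per group was fitted to all 14 libraries, with 7 residual degrees of freedom and a common biological coefficient of variation of 0.639. Calls are genes whose p, adjusted by Benjamini and Hochberg over the 13861 genes tested, was under 0.05. The standard error is the log2 fold change divided by the square root of F. For groups without any count a fold is a bound against 3 counts summed over both libraries, and such bounds cover counting error only. Scaling, filter, tool (DESeq2 1.42.0, limma 3.58.1), the libraries in the fit, a minimum fold, a replicate block and leaving out each library were tried as alternatives.

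The naming rule took the 15 largest increases and 15 largest decreases among called genes whose mean log2 CPM reached 3, up to 4 called members per list and direction, a panel of 39 genes, and up to 8 genes in each direction for day 60 against day 90 and day 21. Other genes are said to be chosen after their values were seen, or are named as called members of a list. The members and lists were chosen with earlier results of these data known, so list counts are descriptions. Of 208 genes checked on GRCm38 transcripts, 2 shared at least 50% of their 50-base words with another gene, and 47 overlapped exons of another gene, mostly antisense, as Mmp12, Ctsb, Cxcl10, Il1b, P2ry12, Csf1r and Alas2 did. Promoters are from RefSeq, build GRCm38.p6.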

Additional observations from a re-analysis of the deposited data

Results flagged for a closer look

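For 3 genes the level at day 60 differed from that at day 21 by a test of the difference itself, edgeR's quasi-likelihood test with Benjamini-Hochberg adjustment over all genes. Mmp12 was higher at day 60 by 6.02 on the log2 scale (adjusted p = 0.0369), Cd36 by 4.94 (adjusted p = 0.0369) and Pparg by 4.32 (adjusted p = 0.016). Both day 60 libraries lay above both day 21 libraries in each gene. The calls rest on the spread shared with the other times: with only the 4 libraries compared none was made, and at a mean CPM of at least 1 there was 1.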

How the results depend on the processing

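Against sham, the 1088 calls became 2653 with DESeq2 (1393 higher, 1260 lower), 1675 with only the 4 libraries compared (835 higher, 840 lower), 409 at a minimum fold of 2 and 1749 without the day 21 libraries, and lay between 132 and 1750 when 1 library was left out. They were 1241 with limma-voom (625 higher, 616 lower), 1111 with DESeq2 size factors, 1093 with upper-quartile scaling, which moved the median of all genes from 0.14 to 0.24, 1080 without a filter and 1147 at a mean CPM of at least 1. The count of genes whose groups do not overlap, 8422, was 7992 on CPM of total counts, 8397 with DESeq2 size factors and 7169 at a mean CPM of at least 1. Against day 90 the count of 0 became 23 with DESeq2 and stayed 0 otherwise, leave-one-out fits included. Against day 21 the 3 calls became 362 with DESeq2, 13 with limma-voom, 1 at a mean CPM of at least 1, 0 with only the 4 libraries and 1 at a minimum fold of 2, and lay between 0 and 360 when 1 library was left out. The causes were not tested, other than that fewer libraries or genes enter some fits.

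With the replicate number as a block, the calls were 1953 against sham, including all 1088, 0 against day 90 and 7 against day 21. The labels do not tie the numbers to shared animals or batches. Same-numbered libraries deviated together with r over 0.1 in 20 of 21 pairs of groups (0.071 to 0.677), and replicate number and depth divide the libraries in the same way.

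Of the 149 genes of the naming rule 4 changed sign under an alternative, none of them called. When 1 library was left out, Cx3cr1 ranged from -1.38 to 0.18 (without sham replicate 1), Csf1r from -0.11 (without day 60 replicate 2) to 0.69, and Ccl2 from -0.71 to 0.47 (without sham replicate 2). Mki67 ranged from -1.08 to 0.27 (without sham replicate 1) and was 0.00095 without day 60 replicate 2. At 3 counts, levels of 0.197 and 0.0298 CPM in sham and 0.108 and 0.0163 CPM at day 60 limit what can be seen.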
